A study of Mus musculus with 6 samples.

Results

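Genes that fold, check and move newly made proteins at the endoplasmic reticulum (ER) were compared between the corpus neck of wild-type and Cldn18 knockout mouse stomachs. The set was chosen by function and found by gene symbol, and it holds 54 genes of the 38720 rows of the table. It has 6 roles: 11 chaperones and cochaperones, 6 disulfide isomerases, 6 stress sensors and transcription factors, 8 genes of ER-associated degradation, 15 of targeting, translocation and signal peptide removal, and 8 of vesicle transport between ER and Golgi. The samples were 3 wild-type (CLDN18+/+) and 3 knockout (CLDN18-/-) RNA-seq libraries, all of strain B6:129S5, from tissue cut by laser capture out of unfixed frozen sections. The sample labels give an age of 7 weeks and the series description gives 7 days, so the age is not settled here. The sources used here do not give the deleted part of Cldn18. Nothing states that the libraries came from separate animals, so a p-value here measures spread between these libraries alone, and that spread may be technical.

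Secreted and membrane proteins enter the ER through the Sec61 channel, where chaperones and disulfide isomerases fold them, and ER-associated degradation returns failed products to the cytosol. When unfolded protein builds up, the sensors IRE1, PERK and ATF6 start the unfolded protein response, which raises the transcription of chaperone and degradation genes. Zymogenic chief cells, mucous neck cells and surface pit cells of the stomach are all secretory. Mucous epithelia also carry IRE1-beta (Ern2) and the mucin-associated isomerase Agr2.

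Reads on genes ranged from 37673283 to 52842813 per library. The single locus Gm26924 took between 38.6% and 45.4% of all normalized counts in each library. Cldn18 (ENSMUSG00000032473.13, chr9:99689461-99717267 in mm10), the targeted tight junction gene, had 30498, 21210 and 23241 normalized counts in the wild-type libraries and 13035, 16798 and 15818 in the knockout libraries, a log2 difference of -0.71 ± 0.20 (SE, limma adjusted p = 0.0134). The call was lost without knockout library 1 (log2 difference -0.60, adjusted p = 0.0882), and since reads were counted over the whole gene, the row checks only the direction of the labels. Marker genes showed that the capture held more than neck cells. Summed chief cell markers (Pgc, Gif, Chia, Clps, Bhlha15 and Pga5) lay between 1815244 and 3011629 normalized counts in the wild-type libraries and between 39928 and 74333 in knockout libraries, with 6 of 6 genes called lower, of which Pga5 lost its call without knockout library 3 (adjusted p = 0.0657). Summed parietal cell markers lay between 396833 and 515978 in wild-type and between 9674 and 17254 in knockout libraries, with 5 of 6 lower and Slc9a4 not called. Of 5 mucous neck markers, Gkn3, Dmbt1 and Cftr were called higher, Muc6 was called lower and Tff2 was not called. In such bulk samples, fewer cells of a type and less RNA per cell cannot be told apart.

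Of the 54 genes, 53 were tested, each with a value of at least 10 in all 6 libraries. In knockout libraries 24 were called higher (45.3% of those tested, against 23.3% of the 17432 genes tested overall), 5 were called lower (9.43%, against 21.5%) and 24 were not called. Calls in either direction thus numbered 29 of 53, where 44.7% of all genes tested were called. The median log2 difference was 0.40, against -0.02 over all genes tested. Calls were spread unevenly over the roles. Of 17 chaperones and isomerases, 16 were called higher and none lower, while the 22 sensors, degradation genes and vesicle transport genes gave 2 higher and 4 lower. Changes were moderate: 8 of the 24 genes called higher exceeded a 2-fold difference (33.3%, against 48.3% of all genes called higher). Values of the 3 knockout libraries lay wholly above those of the 3 wild-type libraries for 26 genes (49.1%, against 28.1% of all genes tested) and wholly below for 9 (17.0%, against 27.1%), and 55.2% of all genes had no overlap in either direction. The split between higher and lower calls depended on scaling. Quantile normalization, which moved the median of all genes to 0.10, gave 19 higher and 11 lower, and upper quartile scaling, which moved it to -0.15, gave 21 higher and 12 lower. Scaling to the total without Gm26924 and the mitochondrial genome, which moved it to 0.07, gave 31 higher and 5 lower. Of the 29 calls, 15 held under all 20 alternative settings: the chaperones Hspa5, Hsp90b1, Hyou1, Dnajb11, Sdf2l1, Manf, Creld2 and Calr, the isomerases Pdia3, Pdia4, Pdia5 and Pdia6, and the lower genes Creb3l4, Derl3 and Sec62.

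**Figure D1:**
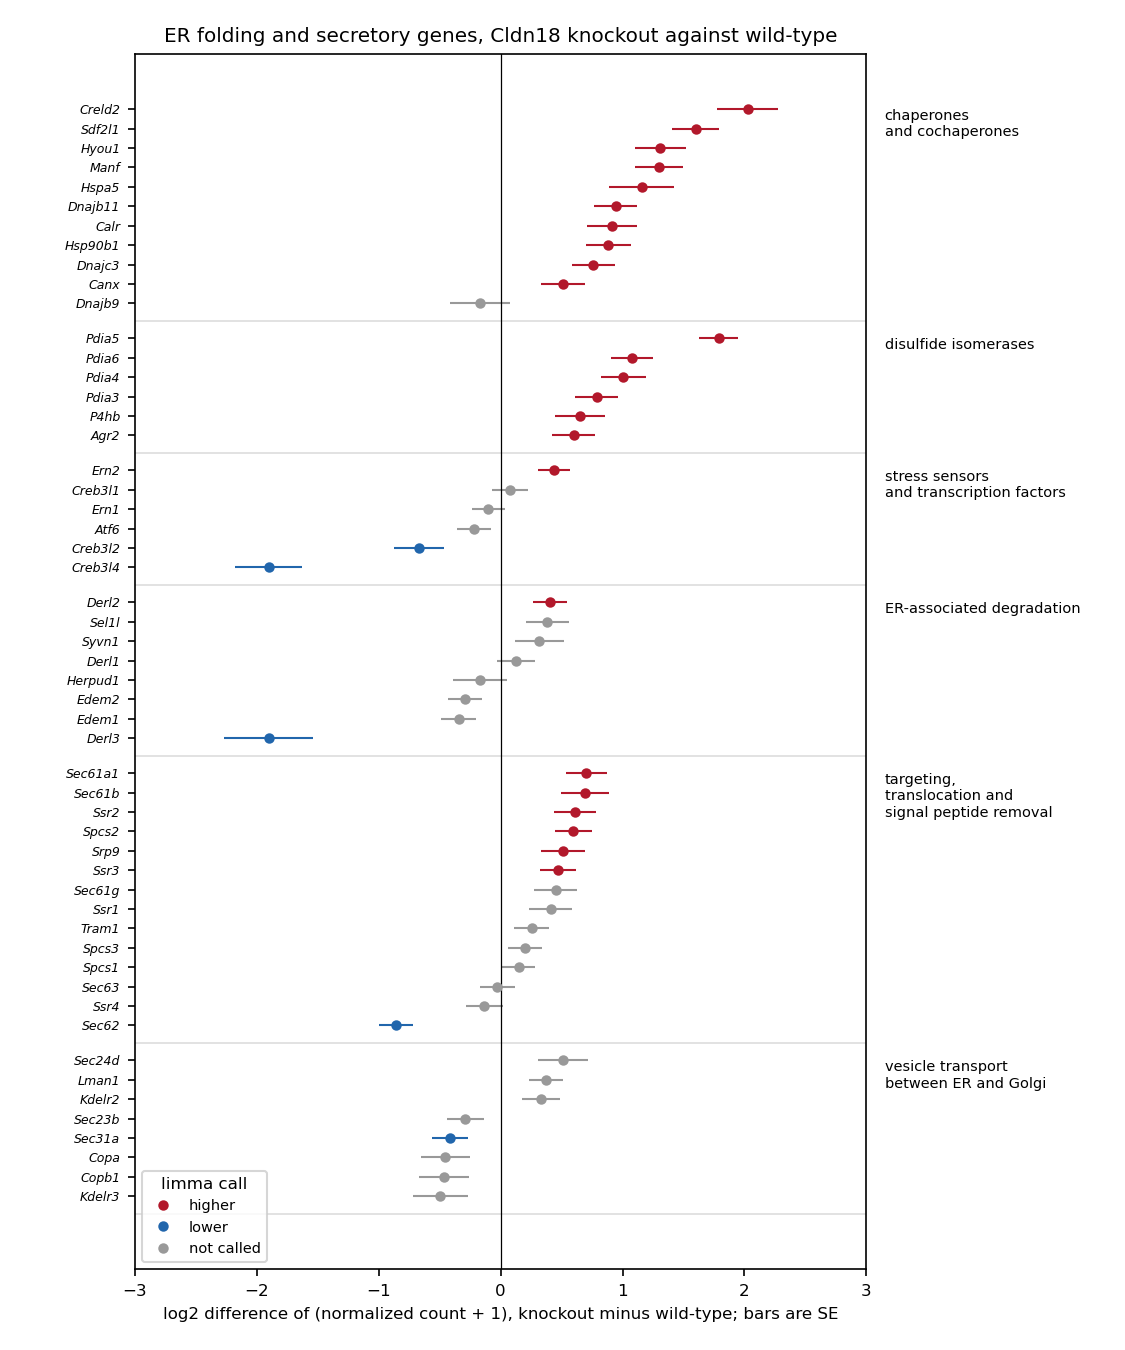
Log2 difference of (normalized count + 1), knockout minus wild-type, for each of the 53 tested genes grouped by role. Points are limma estimates with their standard errors, coloured by call; chaperones and isomerases lie to the right of 0 except Dnajb9, and Creb3l4 and Derl3 lie farthest to the left.

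Chaperones were higher in knockout libraries almost throughout. Of 11 genes, 10 were called higher (90.9%, against 23.3% of all genes tested). Their log2 differences ran from 0.51 to 2.03, with a median over all 11 of 0.95. Hspa5 (BiP, the ER Hsp70, ENSMUSG00000026864.13, chr2:34771970-34777547) had 19611, 29510 and 18296 normalized counts in the wild-type libraries and 55229, 35455 and 59929 in knockout libraries, or 22472 ± 6130 against 50204 ± 12988 (SD, n = 3 each). The groups did not overlap, although wild-type library 2 and knockout library 2 came close to each other. The log2 difference was 1.16 ± 0.27 (limma adjusted p = 0.00518), a 2.23-fold rise. Creld2 and Sdf2l1 had the largest differences of the 11. Creld2 (chr15:88819646-88826683), an ER-stress-inducible resident protein, had 1156, 850 and 632 in wild-type and 4089, 2451 and 4209 in knockout libraries (log2 difference 2.03 ± 0.25, limma adjusted p = 0.000122, 4.08-fold). Sdf2l1 (chr16:17130138-17132383), a partner of the BiP cochaperone Dnajb11, had 1649, 1321 and 1034 against 4240, 3234 and 4587 (1.60 ± 0.19, limma adjusted p = 0.000104). Every knockout value of both genes was above every wild-type value.

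Hyou1 (chr9:44379490-44392369), which exchanges nucleotide on BiP, had 5106, 4649 and 3671 normalized counts in the wild-type libraries and 12139, 8076 and 13533 in knockout libraries (1.31 ± 0.21, limma adjusted p = 0.000614). Manf, a secreted ER stress protein, had 4172, 3469 and 3089 against 10124, 6575 and 10010 (1.30 ± 0.19, limma adjusted p = 0.000408). Dnajb11 itself had 3471, 3286 and 2528 against 6400, 4781 and 6732 (0.95 ± 0.18, limma adjusted p = 0.00158). In each of these genes knockout library 2 was the lowest of its group and still above all wild-type libraries. Calr (calreticulin, chr8:84841850-84846934), a lectin chaperone of glycoproteins, had 21662, 22092 and 16292 in wild-type and 39380, 31872 and 41521 in knockout libraries (0.91 ± 0.21, limma adjusted p = 0.00444). Hsp90b1 (GRP94, the ER Hsp90) differed by 0.88 ± 0.18 (limma adjusted p = 0.00298) and Dnajc3, a J-domain cochaperone, by 0.76 ± 0.18 (limma adjusted p = 0.0051). Canx (calnexin), the membrane-bound counterpart of calreticulin, changed least of the 10, with 13658, 17482 and 12330 against 20187, 19044 and 22280 (0.51 ± 0.18, limma adjusted p = 0.0403). Its call was lost without wild-type library 1 or 3 or any 1 knockout library, with adjusted p up to 0.14. Dnajb9, a J-domain cochaperone of BiP, was the exception, with 805, 1051 and 687 in wild-type and 690, 548 and 1077 in knockout libraries. The groups overlapped (-0.17 ± 0.25, limma adjusted p = 0.608), and without knockout library 2 the estimate was 0.05.

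All 6 disulfide isomerases were called higher (100%, against 23.3% of all genes tested), with a median log2 difference of 0.90. In all 6 the knockout values lay wholly above the wild-type values, as in 28.1% of all genes tested. Pdia5 (ENSMUSG00000022844.8, chr16:35397312-35490873) had the lowest level per kb of exon in wild-type of the 6 and changed most, from 597, 474 and 576 normalized counts to 2221, 1755 and 1741 (1.79 ± 0.16, limma adjusted p = 1.45e-05, 3.46-fold). Pdia6 had 6803, 5637 and 4838 in wild-type and 12863, 10383 and 13034 in knockout libraries (1.08 ± 0.17, limma adjusted p = 0.000596). Pdia4 differed by 1.01 ± 0.18 (limma adjusted p = 0.00138) and Pdia3, which works with calnexin and calreticulin, by 0.79 ± 0.18 (limma adjusted p = 0.0045). P4hb (protein disulfide isomerase itself) had 22951, 17902 and 16678 against 30770, 24816 and 34598 (0.65 ± 0.20, limma adjusted p = 0.0248). Agr2 (chr12:35992907-36004087) had 12755, 9623 and 9736 against 17548, 17029 and 13953 (0.60 ± 0.18, limma adjusted p = 0.0175). The calls of P4hb and Agr2 depended on single libraries: P4hb was lost without knockout library 1 or 3 or wild-type library 3 (adjusted p up to 0.108), and Agr2 without knockout library 1 or 2 or wild-type library 3 (up to 0.0882). On the scale of normalized counts per kb of exon, Agr2 (8292), Calr (6950), P4hb (6703) and Hspa5 (5314) had the highest wild-type levels of all 54 genes. The same 4 led in knockout libraries, with Calr at 13052, Agr2 at 12530, Hspa5 at 11872 and P4hb at 10507.

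**Figure D2:**
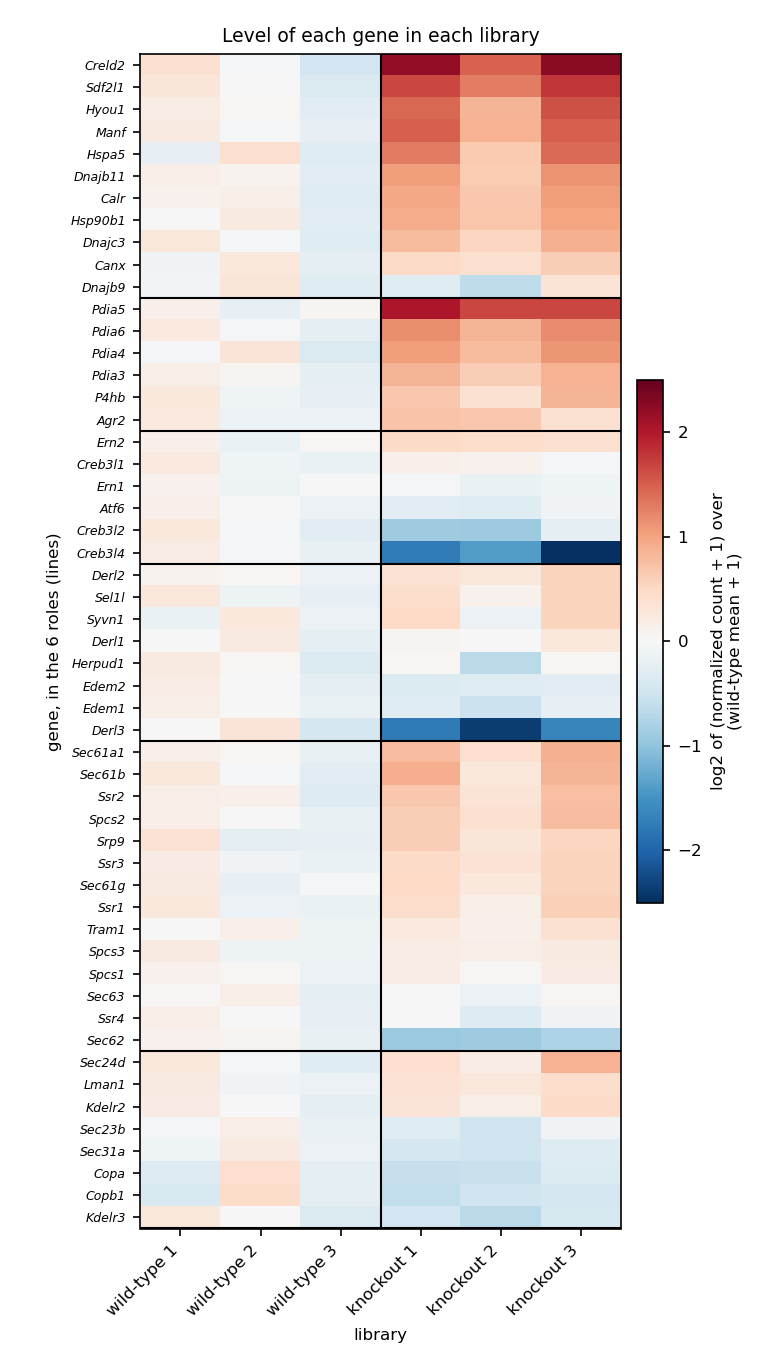
Level of each of the 53 tested genes in each of the 6 libraries, as log2 of (normalized count + 1) over (wild-type mean + 1), with rows grouped by role. Chaperone and isomerase rows other than Dnajb9 are high in all 3 knockout libraries, with 11 of 11 chaperones lowest in knockout library 2, while Creb3l4, Derl3 and Sec62 are low in all 3.

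Many ER chaperone genes are known to carry the ER stress element in their promoters, the letters CCAAT and CCACG set 9 bases apart. RefSeq (GRCm38.p6) has a promoter entry for 42 of the 54 genes. That pattern, with any bases in the gap, was searched on both strands in the 250 bases before each start. It was found in 9 of the 42 genes (21.43%), against 35 of the 27025 genes with an entry (0.1295%). The set holds many genes of the kind known for this element, so the higher share is not an independent result. The 9 promoters are shown because 7 of the genes were called higher (Hspa5, Hsp90b1, Calr, Canx, Pdia6, Dnajc3 and Creld2), while Syvn1 was not called and Derl3 was called lower. Each runs 5′ to 3′ on the strand of its gene, with the half-sites in capitals. In Calr, Derl3 and Creld2 the match is on the opposite strand, and Hsp90b1 has a match on each strand. The match in Hspa5 lies within a 5′ exon of GENCODE's transcript model, which begins upstream of the RefSeq start, so only the match and 5 bases on each side are shown; the other windows reach up to 40 bases to each side.
Hspa5, chr2:34772020-34772048, plus strand: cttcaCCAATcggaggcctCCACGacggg
Hsp90b1, chr10:86705510-86705694, minus strand: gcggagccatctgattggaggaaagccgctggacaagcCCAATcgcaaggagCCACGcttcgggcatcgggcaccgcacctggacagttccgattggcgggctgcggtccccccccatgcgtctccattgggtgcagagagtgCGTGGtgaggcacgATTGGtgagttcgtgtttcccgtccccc
Calr, chr8:84847035-84847133, minus strand: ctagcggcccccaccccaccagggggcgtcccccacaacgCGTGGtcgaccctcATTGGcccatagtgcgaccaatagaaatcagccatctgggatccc
Canx, chr11:50325760-50325858, minus strand: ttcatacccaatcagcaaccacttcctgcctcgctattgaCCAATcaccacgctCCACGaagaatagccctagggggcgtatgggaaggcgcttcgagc
Pdia6, chr12:17266451-17266544, plus strand: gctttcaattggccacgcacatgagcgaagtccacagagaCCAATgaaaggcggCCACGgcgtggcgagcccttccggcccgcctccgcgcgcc
Dnajc3, chr14:118937787-118937885, plus strand: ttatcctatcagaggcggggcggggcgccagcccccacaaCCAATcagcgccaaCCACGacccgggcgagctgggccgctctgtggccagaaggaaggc
Creld2, chr15:88819480-88819578, plus strand: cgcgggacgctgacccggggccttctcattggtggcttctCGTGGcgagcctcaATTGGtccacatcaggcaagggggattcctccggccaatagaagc
Syvn1, chr19:6046492-6046575, plus strand: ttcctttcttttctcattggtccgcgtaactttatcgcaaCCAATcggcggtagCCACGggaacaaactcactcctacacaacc
Derl3, chr10:75893202-75893300, plus strand: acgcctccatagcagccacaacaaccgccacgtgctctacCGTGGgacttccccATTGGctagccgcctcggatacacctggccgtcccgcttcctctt

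The match began 65 bases before the start in Hspa5, 44 in Syvn1 and 98 in Pdia6, and 212 and 107 in Hsp90b1. It began 162 bases before in Calr, 145 in Canx, 105 in Dnajc3, 126 in Creld2 and 156 in Derl3. The median log2 difference of the 9 genes was 0.88. The other 32 tested genes with an entry had a median of 0.26, with 12 higher, 4 lower and 16 not called. Over all promoters, 11585 tested genes lacked the pattern, with 2984 called higher and 2262 lower. The 9 genes are chaperones, an isomerase and degradation genes, while the other 32 cover all roles. Pattern and role thus cannot be told apart here, and the part of the pattern in the calls was not tested. Of the 35 genes with the pattern in the whole table of promoters, 19 were tested, and 8 were called higher and 3 lower. These 19 include the 9 genes of the set, which gave 7 of the 8 higher calls and 1 of the 3 lower calls. The related ER stress element II, ATTGG and CCACG with 1 base between them, was found in 1 of the 42 genes, Herpud1, and in 10 of all genes (0.037%). Its window is shown because Herpud1, a stress-inducible degradation factor, was not called.
Herpud1, chr8:94386337-94386427, plus strand: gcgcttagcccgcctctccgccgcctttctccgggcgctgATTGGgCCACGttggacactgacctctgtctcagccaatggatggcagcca
The letters TGACGTGG, an unfolded protein response element, were found in Sec24d, Copb1 and Kdelr3, none of them called, and in 0.6031% of all genes with an entry. A match is a description of letters and not evidence of binding.

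Sensors and transcription factors were called in both directions. Of 6 genes, 1 was called higher (16.7%, against 23.3% of all genes tested) and 2 lower (33.3%, against 21.5%). Their median log2 difference was -0.16. Ern1 (IRE1-alpha, chr11:106394650-106487852) had 1454, 1247 and 1372 normalized counts in the wild-type libraries and 1331, 1210 and 1252 in knockout libraries, which overlapped (-0.10 ± 0.13, limma adjusted p = 0.571). Ern2 (IRE1-beta, ENSMUSG00000030866.8, chr7:122169893-122186207) had 3180, 2569 and 2939 against 4010, 3921 and 3812, which did not overlap (0.44 ± 0.13, limma adjusted p = 0.0201). This call was lost without any 1 of the knockout libraries or wild-type library 2 (adjusted p up to 0.0854) and under upper quartile scaling (adjusted p = 0.0899). The log2 ratio of Ern2 to Ern1 within a library does not depend on scaling. It was 1.13, 1.04 and 1.10 in wild-type and 1.59, 1.70 and 1.61 in knockout libraries, a pair chosen with the values known and so given without a test. Atf6 (chr1:170704674-170867771), the sensor that is cleaved to a transcription factor, had 2291, 2130 and 1891 against 1744, 1699 and 1978 (-0.22 ± 0.14, limma adjusted p = 0.225). It was called lower under quantile normalization (adjusted p = 0.0229) and upper quartile scaling (0.0236).

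The 3 relatives of Atf6 among the CREB3 family, membrane-bound factors processed in the Golgi, differed from one another. Creb3l4 (ENSMUSG00000027938.11, chr3:90237500-90243512) was called lower, with 1085, 927 and 840 normalized counts in the wild-type libraries and 281, 363 and 157 in knockout libraries (-1.90 ± 0.28, limma adjusted p = 0.000335). The highest knockout value was below the lowest wild-type value. Creb3l2 had 2389, 1959 and 1655 against 1076, 1062 and 1683, so that knockout library 3 reached the wild-type range (-0.67 ± 0.21, limma adjusted p = 0.0216). Its call was lost without knockout library 1 or 2 or wild-type library 1 (adjusted p up to 0.0962). Creb3l1 had 4019, 3158 and 3012 against 3692, 3649 and 3315 (0.07 ± 0.15, limma adjusted p = 0.709).

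Among 8 genes of ER-associated degradation, 1 was called higher, 1 lower and 6 were not called (median log2 difference -0.02). Each direction thus held 12.5%, against 23.3% higher and 21.5% lower over all genes tested. The 3 derlins, membrane proteins of the channel for misfolded proteins, took different directions. Derl3 (ENSMUSG00000009092.5, chr10:75893413-75895941), the derlin of secretory tissues, had 129, 161 and 93.2 normalized counts in the wild-type libraries and 36.8, 23.6 and 39.4 in knockout libraries (-1.90 ± 0.36, limma adjusted p = 0.00173). It had the lowest level per kb of exon of the tested genes, at 63.9 in wild-type and 16.7 in knockout libraries. Derl2 had 1607, 1557 and 1367 against 1932, 1842 and 2220 (0.40 ± 0.14, limma adjusted p = 0.0362), a call lost without wild-type library 3 or any 1 knockout library (adjusted p up to 0.148). Derl1 had 2555, 3009 and 2165 against 2684, 2567 and 3129, which overlapped (0.12 ± 0.16, limma adjusted p = 0.551). Herpud1 (ENSMUSG00000031770.16) had 5671, 5021 and 3824 against 5019, 3042 and 5015 (-0.17 ± 0.22, limma adjusted p = 0.563). The ligase Syvn1 and its partner Sel1l were not called, at 0.32 ± 0.20 and 0.38 ± 0.18 (limma adjusted p = 0.23 and 0.103). Edem1 and Edem2, which extract glycoproteins from folding cycles, had all 3 knockout values below all wild-type values without passing the threshold, at -0.34 ± 0.15 and -0.29 ± 0.14 (limma adjusted p = 0.0801 and 0.117).

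Targeting, translocation and signal peptide removal gave 6 genes called higher, 1 lower and 7 not called of 14 tested (median log2 difference 0.43). Higher calls were 42.9%, against 23.3% of all genes tested, and lower calls 7.14%, against 21.5%. Sec61a1 (chr6:88503579-88518905), the pore subunit of the translocation channel, had 7434, 7046 and 6012 normalized counts in the wild-type libraries and 11720, 9167 and 12666 in knockout libraries (0.70 ± 0.17, limma adjusted p = 0.00607). Sec61b had 1825, 1481 and 1278 against 2861, 1834 and 2770 (0.69 ± 0.20, limma adjusted p = 0.0159), and the third subunit, Sec61g, was not called (0.45 ± 0.17, limma adjusted p = 0.0559). Sec62 (ENSMUSG00000027706.8, chr3:30792875-30821263), a channel partner for small proteins that are imported after translation, was called lower, with 6369, 6160 and 5145 against 3093, 3174 and 3467 (-0.86 ± 0.14, limma adjusted p = 0.000674). The knockout values lay within a narrow range well below the wild-type values. Sec63, which acts with Sec62 in that complex, had a log2 difference of -0.03 ± 0.14 (limma adjusted p = 0.89). The signal peptidase subunit Spcs2 was called higher (0.60 ± 0.15, limma adjusted p = 0.00874), and Spcs1 and Spcs3 were not (0.15 and 0.20). Of the translocon-associated SSR proteins, Ssr2 and Ssr3 were called higher (0.61 ± 0.17 and 0.47 ± 0.15, limma adjusted p = 0.0151 and 0.0266), and Ssr1 (0.41) and Ssr4 (-0.13) were not. Srp9, of the signal recognition particle, was called higher with overlapping groups (0.51 ± 0.18, limma adjusted p = 0.0401), and Tram1 was not called (0.25). Calls of Sec61b, Ssr2, Ssr3 and Srp9 were each lost without knockout library 1, without knockout library 3 and without wild-type library 3, with adjusted p up to 0.0791, 0.068, 0.101 and 0.145. Ssr3 (adjusted p = 0.054) and Srp9 (0.0967) were lost without wild-type library 2 as well. Srp54a was not tested. Its wild-type values were 9.79, 0 and 0.97 and its knockout values 0, 2.22 and 2.88, and its reads are uncertain because near-identical copies lie beside it.

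In vesicle transport between ER and Golgi, 1 of 8 genes was called lower and 7 were not called (median log2 difference -0.35). Lower calls were thus 12.5%, against 21.5% of all genes tested, and higher calls 0%, against 23.3%. Sec31a, of the COPII coat that carries cargo out of the ER, had 5021, 6314 and 4840 normalized counts in the wild-type libraries and 3952, 3811 and 4316 in knockout libraries (-0.41 ± 0.15, limma adjusted p = 0.041). The call was lost without wild-type library 2 or any 1 knockout library (adjusted p up to 0.131). Its coat partners were not called, with Sec23b at -0.29 ± 0.15 and Sec24d at 0.51 ± 0.20 (limma adjusted p = 0.151 and 0.0631). Copa, of the COPI coat that returns vesicles to the ER, had 7710, 12951 and 8218 against 6427, 6527 and 7631, with no overlap (-0.45 ± 0.20, limma adjusted p = 0.0921). Copb1 had 4033, 7244 and 4448 against 3418, 3703 and 3903 (-0.47 ± 0.21, limma adjusted p = 0.0896). In Copa and Copb1 wild-type library 2 stood far above the other two. That library also had the highest summed markers of stratified squamous epithelium, 7224 against 515 and 2624 in the other wild-type libraries and 581 to 696 in knockout libraries, and their part in these values was not tested. The KDEL receptors, which retrieve ER residents such as BiP, differed in sign without either being called (Kdelr2 0.33 ± 0.16 and Kdelr3 -0.49 ± 0.22, limma adjusted p = 0.111 and 0.0976). Lman1, a cargo receptor for glycoproteins, had 4044, 3264 and 3132 against 4456, 4261 and 4729 (0.37 ± 0.14, limma adjusted p = 0.0547). Without wild-type library 1, 8 uncalled genes were called, namely Sel1l, Sec61g, Ssr1, Sec24d, Kdelr2 and Lman1 higher and Copa and Copb1 lower. Syvn1 and Sec24d were called higher without knockout library 2 (adjusted p = 0.0393 and 0.0374), and Kdelr3 was called lower without wild-type library 3 (0.048).

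As a share of all normalized counts outside the locus Gm26924 and the mitochondrial genome, the 54 genes took 1.01%, 1.05% and 0.999% in wild-type and 1.71%, 1.51% and 1.69% in knockout libraries, or 1.02% ± 0.03 against 1.64% ± 0.11 (SD, n = 3 each). Chaperones took 0.344% ± 0.035 against 0.718% ± 0.082, and isomerases 0.214% ± 0.014 against 0.388% ± 0.017. Translocation genes took 0.207% ± 0.008 against 0.272% ± 0.012. The other 3 roles moved by less than 1.1 times, with vesicle transport at 0.124% ± 0.017 against 0.116% ± 0.004. These shares have no test, and their denominator moves with other transcripts: Pgc, Clps, Atp4a, Atp4b, Chia and Gif alone took 10.98% of it in wild-type and 0.224% in knockout libraries.

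**Figure D3:**
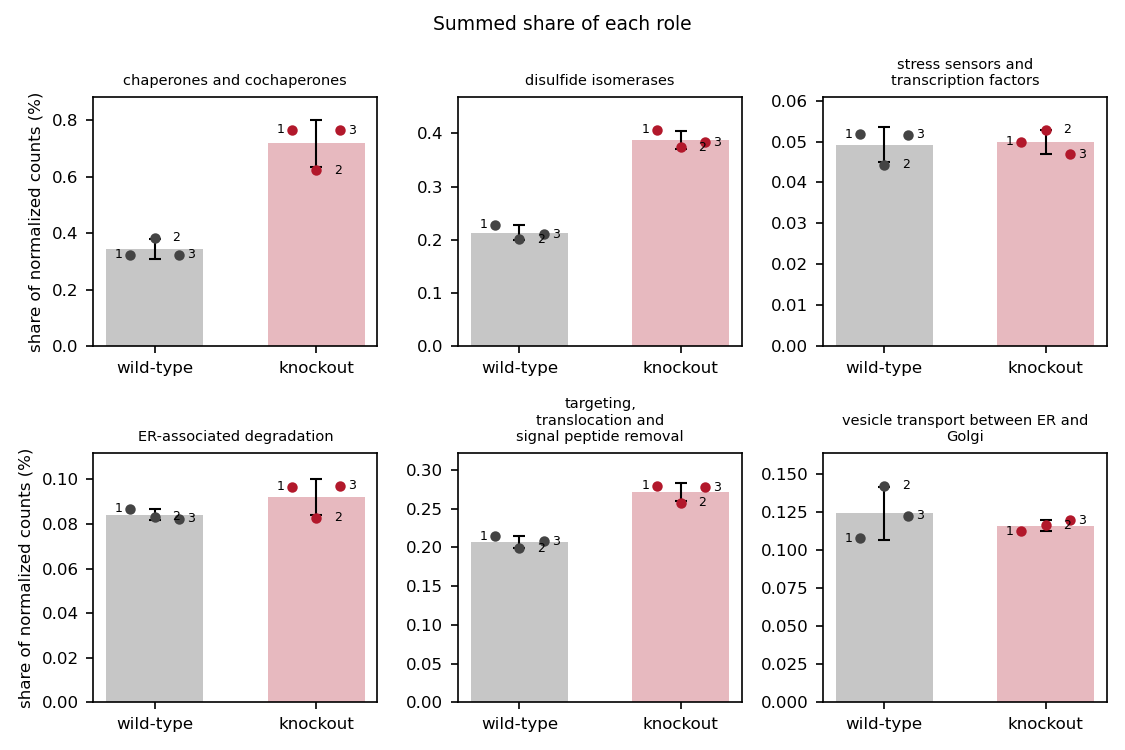
Summed share of normalized counts for each role, in percent of the total without Gm26924 and the mitochondrial genome, with bars for means, error bars for SD (n = 3) and numbered points for libraries. Chaperone and isomerase bars are higher in the knockout group, and those of sensors and vesicle transport are of like height in both groups.

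One library of each group was low across the set. Knockout library 2 had the lowest knockout value in 44 of the 53 tested genes (83.0%, against 38.3% of all genes tested) and in 11 of 11 chaperones. Among genes called higher it was lowest for 21 of 24 (87.5%, against 56.2% of all genes called higher). The same library had the highest summed chief and parietal cell markers of the knockout group, 74333 against 39928 and 51142, and 17254 against 9674 and 13598 normalized counts. Other markers went the other way in it. Its summed surface pit cell markers were the lowest of the knockout group, 320085 against 560842 and 544014. The chief cell marker Bhlha15 was also lowest in it, at 106 against 243 and 333. Wild-type library 3 was the lowest wild-type library in 44 of 53 genes (83.0%, against 40.3% of all genes), and it also had the lowest summed chief cell markers of its group, 1815244 against 2500850 and 3011629. As shares of counts outside Gm26924 and the mitochondrial genome, it was not the lowest in chaperones or isomerases. Chaperones took 0.32423%, 0.384353% and 0.324265% in wild-type libraries 1 to 3, and isomerases 0.228%, 0.202% and 0.211%. Knockout library 2 stayed the lowest of its group in chaperones, at 0.623% against 0.765% in each of the others. The part of these cell types in the chaperone levels was not tested. Without knockout library 2, 22 genes were called higher and 3 lower.

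Markers of other cell types moved with the groups as well. Of 4 surface pit cell markers, Gkn1 and Gkn2 were called lower (-1.62 and -1.25, limma adjusted p = 0.0127 and 0.0494), and Muc5ac and Tff1 were not called. The summed pit cell markers lay between 766468 and 1336361 normalized counts in wild-type and between 320085 and 560842 in knockout libraries. The Gkn1 call was lost without knockout library 1 or 2 (adjusted p up to 0.0956), and the Gkn2 call without any 1 library except wild-type library 2 (up to 0.228). Of 6 fibroblast markers, Dcn, Lum and Pdgfra were called higher (limma adjusted p = 0.00728, 0.00611 and 0.000103), with mean normalized counts of 1714, 329 and 998 in the wild-type group and 3535, 717 and 3470 in knockout libraries, and the 3 collagen genes were not called. Their sum overlapped, at 21996 to 36834 in wild-type and 26367 to 47556 in knockout libraries. Of 7 stratified squamous markers, Krt5, Krt14 and Krt15 were called lower (-3.88, -4.16 and -3.95, limma adjusted p = 0.00156, 0.00295 and 0.00184). None of these 3 was called in the authors' deposited table. Ivl was called higher, with 0, 0 and 1.94 against 282, 308 and 405 (7.84 ± 0.57, limma adjusted p = 3.87e-06), and 3 were not called.

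Of 9 plasma cell markers 7 were tested, and Sdc1, Pou2af1 and Igha were called higher. Sdc1, which epithelium also expresses, made up most of a sum between 4587 and 6325 in wild-type and between 8291 and 10302 in knockout libraries. Pou2af1 had 36.7, 45.7 and 52.4 against 134, 143 and 128 (1.58 ± 0.30, limma adjusted p = 0.00167). Igha had 79.6, 111 and 14.6 against 442, 485 and 85.5, which overlapped (2.35 ± 0.78, limma adjusted p = 0.0305), and its call was lost without knockout library 1 or 2 or wild-type library 3 (adjusted p up to 0.126). Igkc averaged 27.9 in wild-type and 99.7 in knockout libraries and Igj 31.6 and 61.8, and neither was called (limma adjusted p = 0.0756 and 0.339). Without knockout library 3, Igkc was called higher (adjusted p = 0.00385). Ighm and Fkbp11 were not called, and Mzb1 and Tnfrsf17 were at or below 5.67 in every library. Of 9 pancreatic acinar markers 2 were tested and 1, Cela1, was called higher with overlapping groups, a call lost without knockout library 1 or 2 or wild-type library 2 or 3 (adjusted p up to 0.141). The acinar sum lay between 873 and 1180 in wild-type and between 1054 and 2350 in knockout libraries. Goblet cell markers summed to 1255 to 1562 in wild-type and 1114 to 1495 in knockout libraries. Fcgbp was called higher and Spdef lower, while Muc2 lay between 9.44 and 23.3. The Fcgbp call was lost without wild-type library 3 (adjusted p = 0.0513) and the Spdef call without knockout library 1 or 3 (adjusted p up to 0.083). The part of these cell types in the levels of the set was not tested.

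**Figure D4:**
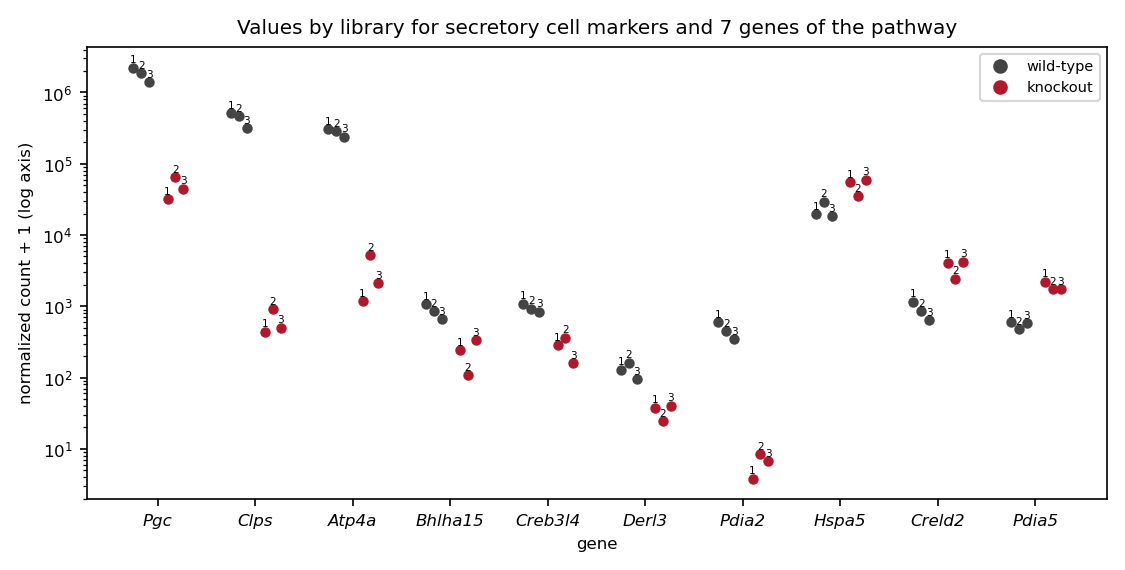
Normalized count + 1 on a log axis for the chief cell genes Pgc and Clps, the parietal cell gene Atp4a and 7 genes of the pathway, with numbered points for the libraries of each group. Knockout library 2 is the highest of its group in Pgc, Clps, Atp4a, Creb3l4 and Pdia2. It is the lowest in Hspa5, Creld2, Derl3 and Bhlha15, which is also a chief cell marker, and lies between the others in Pdia5.

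Beyond the 54 genes, 128 other genes of the same pathways were listed and 127 were tested. Of these 33 were called higher (26.0%, near the 23.3% of all genes) and 20 lower (15.7%, against 21.5%), with a median log2 difference of 0.15. Other folding enzymes gave 9 higher (31.0%) and 5 lower (17.2%) of 29, and the 3 largest differences in that list were decreases. Pdia2 (ENSMUSG00000024184.15), an isomerase best known from pancreas, had 603, 448 and 346 normalized counts in the wild-type libraries and 2.83, 7.39 and 5.77 in knockout libraries (-6.24 ± 0.42, limma adjusted p = 2.12e-06). P4ha2, a subunit of collagen prolyl 4-hydroxylase with P4hb as its partner, differed by -2.24 ± 0.15 (limma adjusted p = 2.05e-06), and the membrane thioredoxin Tmx4 by -1.59 ± 0.16 (limma adjusted p = 2.65e-05). Mogs, Dnajc10 and Uggt1, chosen after their values were seen, were called higher at 1.49, 1.09 and 0.98. They trim glycans, reduce disulfides and recheck glycoprotein folding.

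Other stress response regulators gave 4 higher (22.2%, against 23.3% of all genes tested) and 5 lower (27.8%, against 21.5%) of 18 (median -0.11). Xbp1, the transcript that IRE1 splices, had 9693, 8006 and 7126 normalized counts in the wild-type libraries and 6818, 6139 and 7465 in knockout libraries (-0.27 ± 0.16, limma adjusted p = 0.19). It was called lower under quantile normalization (adjusted p = 0.00484) and upper quartile scaling (0.0212). Gene totals do not show splicing. Bhlha15 (Mist1), the secretory cell transcription factor that is also among the chief cell markers, had 1078, 862 and 657 against 243, 106 and 333 (-2.04 ± 0.36, limma adjusted p = 0.00115). The 2 partners of the eIF2-alpha phosphatase went apart. Ppp1r15a, the stress-induced one, had 504, 443 and 288 against 215, 202 and 250 (-0.85 ± 0.24, limma adjusted p = 0.0135, 0.0501 without knockout library 2). Ppp1r15b, the constitutive one, had 4780, 3544 and 3299 against 7822, 7136 and 8200 (1.01 ± 0.16, limma adjusted p = 0.00068). Named after their values were seen are genes of the PERK branch. Atf4 was not called, with 3851, 5808 and 3705 against 5932, 4594 and 6157 (0.34 ± 0.20, limma adjusted p = 0.186). It was called higher without wild-type library 2 (adjusted p = 0.0181). Eif2ak3 (PERK itself) was called lower (-0.38 ± 0.14, limma adjusted p = 0.044), a call lost without wild-type library 1 or any 1 knockout library (adjusted p up to 0.143). Ddit3 (CHOP) was called lower (-0.83 ± 0.20, limma adjusted p = 0.00719). Trib3, a known target of CHOP, was called higher at a low level, with 19.6, 32.1 and 15.5 against 68.0, 42.9 and 69.2 (1.41 ± 0.44, limma adjusted p = 0.0242). Its call was lost without knockout library 1 or 3 or wild-type library 3 (adjusted p up to 0.0955).

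Other genes of ER-associated degradation gave 5 higher and 3 lower of 20 (median 0.10). Erlec1, a lectin of the degradation complex, had 2076, 2617 and 2188 against 1017, 897 and 1031 (-1.22 ± 0.14, limma adjusted p = 8.5e-05), and the ubiquitin-conjugating enzyme Ube2j2 had 1147, 801 and 823 against 2053, 1582 and 1888 (1.01 ± 0.18, limma adjusted p = 0.00105). Oligosaccharyltransferase, which adds N-glycans in the channel, gave 4 higher (33.3%) and 1 lower (8.33%) of 12 (median 0.17). Its subunits Ostc and Rpn1 were called higher (0.86 ± 0.15 and 0.74 ± 0.16, limma adjusted p = 0.000996 and 0.00319). Tusc3, its oxidoreductase subunit, was called lower, with 2313, 2144 and 1743 against 776, 926 and 775 (-1.32 ± 0.16, limma adjusted p = 8.47e-05). Other targeting genes gave 2 higher (16.7%) and none lower of 12. The 2 were Srp19 and Srp68, at 0.68 and 0.43. The Srp68 call was lost without knockout library 1 or 3 or wild-type library 1 or 3 (adjusted p up to 0.16). Other vesicle transport genes gave 9 higher and 6 lower of 36 (median 0.04). Copz2, a COPI subunit, had 590, 487 and 451 against 105, 123 and 145 (-2.03 ± 0.21, limma adjusted p = 4.27e-05), and its homolog Copz1, chosen after its values were seen, was not called (0.17, limma adjusted p = 0.348). Ergic3 was called lower with wild-type library 2 again high, at 3977, 11153 and 5258 against 3034, 2903 and 3005 (-1.05 ± 0.30, limma adjusted p = 0.0159). That call was lost without knockout library 2 (adjusted p = 0.0513).

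**Figure D5:**
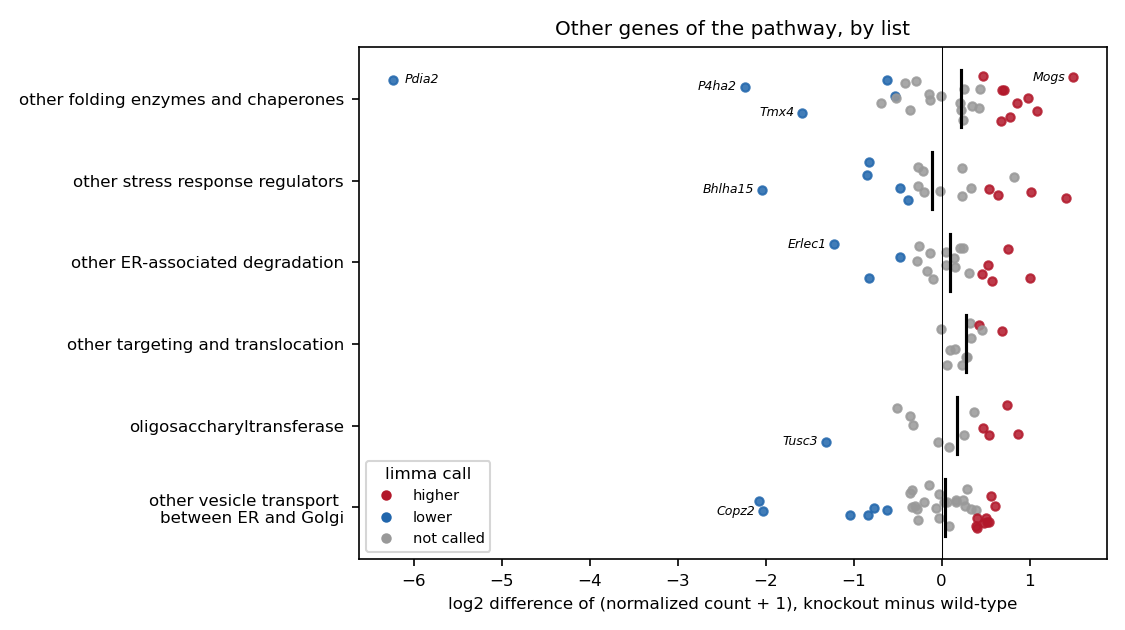
Log2 difference of (normalized count + 1), knockout minus wild-type, for the 127 other pathway genes tested, by list, coloured by limma call, with black bars for list medians. Medians lie between -0.11 and 0.28, and Pdia2 is farthest to the left at -6.24.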

How the data were processed

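RNA-seq was done on the corpus neck, 3 wild-type and 3 knockout libraries, grouped by their labels. Per the submitters' processing notes STAR, featureCounts, DESeq and mm10 were used; the sources used here do not give their roles, versions, annotation or strand setting. The table deposited by the authors holds 38720 rows of normalized counts (a scaled count signal). Dividing each library by the value of 1 read gave whole numbers for 100% of values, with a tolerance of 0.05 reads, so reads were recovered for edgeR 4.0.16 and DESeq2 1.42.0, used as alternatives. edgeR called 4323 genes higher and 3724 lower, and DESeq2 3895 and 4012, where limma called 4053 and 3743. The authors' deposited comparison table, with a fold (ratio) and p-values, was used only as an alternative.

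The 17432 genes that reached 10 in 3 or more libraries were tested with limma 3.58.1 (trend, R 4.3.3) on log2(value + 1), two-sided, with Benjamini-Hochberg adjustment over all of them, and called at adjusted p under 0.05. Log2 differences are on that scale, which understates low genes, and ± after them is the SE. The procedure was run on simulated data in which few genes changed and library scaling was known. That run therefore does not test the scaling of these libraries. Coordinates are from GENCODE vM21 (mm10), promoters from RefSeq GRCm38.p6. With the strand setting unknown, 10 of the genes overlap a coding gene on the opposite strand, whose reads cannot be told apart: Manf, Pdia3, Pdia6, Syvn1, Derl2, Spcs1, Spcs2, Spcs3, Copa and Kdelr3. The genes and lists were chosen with earlier results of these data known. Named by rule were Cldn18, Ern1, Ern2, Atf6, Xbp1, Hspa5, Agr2, Derl3, up to 4 called genes of each role with the largest differences, its most abundant gene, up to 3 called genes of each pathway list whose higher group averaged 100 or more, and the markers; other genes of the set by direction.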

Additional observations from a re-analysis of the deposited data

How the results depend on the processing

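No gene of the set that was called changed direction under any of the 20 alternatives, and 15 of 29 calls held in all of them. The genes called higher, 24, numbered 13 without wild-type libraries 2 and 3 (the lone wild-type library is then assumed to vary like the knockout ones) and 15 to 29 with 1 library left out in turn. Genes called higher numbered 16 without a mean trend and 18 in the authors' deposited table. In that table Canx, Ern2, Derl2, Sec61b, Ssr3 and Srp9, called higher here, and Creb3l2 and Sec31a, called lower here, were not called. The genes called lower, 5, numbered 8 with DESeq2, 3 without a mean trend, 11 with quantile normalization, 12 with upper quartile scaling, 3 in the authors' deposited table and 3 to 6 with 1 library left out. For other pathway genes, higher calls (33) numbered 16 without a mean trend, 17 without wild-type libraries 2 and 3, 16 in the authors' deposited table and 15 to 36 with 1 library left out, and lower calls (20) numbered 35 with quantile normalization, 35 with upper quartile scaling, 13 in the authors' deposited table and 13 to 22 with 1 library left out. Over all genes the authors' deposited table had 2024 lower calls against 3743, and with 1 library left out there were 3095 to 4369 higher and 2851 to 3513 lower. The log2 difference of Cldn18 ranged from -0.82 to -0.55 with 1 library left out. Of all normalized counts, the set took 0.566% in wild-type and 0.944% in knockout libraries, and with 1 library left out its share outside Gm26924 and the mitochondrial genome ranged from 1.01% to 1.03% and from 1.60% to 1.70%.

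The genes tracked under every alternative were the set, the other genes named in the text, and the chief, parietal, neck and plasma cell markers. Atf4, Ivl, Krt5, Krt14 and Krt15 were not tracked. Among the tracked genes 22 estimates changed sign, each for a gene not called, with adjusted p of at least 0.383 after the change. The cause was not tested. They were Creb3l1 (-0.0759 with quantile normalization, -0.0629 with upper quartile scaling, -0.18 without wild-type libraries 2 and 3, and -0.0058 to 0.20 with 1 library left out), Derl1 (-0.0238 with quantile normalization, -0.0134 with upper quartile scaling), Dnajb9 (-0.44 to 0.0469 with 1 library left out), Herpud1 (0.0183 with array weights, -0.33 to 0.0713 with 1 library left out), Muc2 (0.33 with quantile normalization, -0.52 to 0.0767 with 1 library left out), Muc5ac (0.0174 with quantile normalization), Sec63 (0.0544 with array weights, 0.0583 with scaling to the total, -0.13 to 0.0605 with 1 library left out) and Spcs1 (-0.0036 with quantile normalization). Without wild-type libraries 2 and 3 they were Spcs3 (-0.0406), Ighm (-0.18), Igj (-0.20) and Tff1 (-0.22).

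Same-numbered libraries correlated at -0.0037, 0.021 and -0.17 in their deviations from the group means, and other pairs at -0.095 to 0.107. With 3 libraries in each group, these values cannot show whether the samples were paired. With the replicate block, 19 genes of the set were called higher and 4 lower. Srp54a, at 9.79 or below, was too low to test.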
